A study of Canis lupus familiaris with 45 samples.

Results

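The bone morphogenetic protein (BMP) pathway was followed in dog fat through 10 genes, which were the ligands BMP6, BMP2 and BMP4, the receptors BMPR1A, BMPR1B and BMPR2, the brakes SMAD6 and SMAD7 and the target genes ID1 and ID3. All probe sets carrying 1 of these gene symbols in the platform's annotation were taken, which gave 15 of the 42924 probe sets on the array that were not controls. The 10 genes stand beside 15115 genes that the table measures under a symbol of their own. The samples were subcutaneous fat from 9 intact female beagles that were 4 years old, with 1 array per dog and week at weeks 0, 4, 8, 12 and 24. In the ad libitum group, dogs 2, 5, 6, 7 and 8 ate freely after the week 0 sample (n = 5), and in the control group dogs 1, 3, 4 and 9 were fed to hold their body weight (n = 4). Dogs were assigned to a group at random, every dog ate the same commercial diet, and fat was taken after an overnight fast. Values are the deposited log2 GCRMA levels of each probe set, and a difference of 1 is a doubling.

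BMPs are secreted ligands that bring type I receptors such as BMPR1A and BMPR1B together with the type II receptor BMPR2. The receptors then phosphorylate SMAD1, SMAD5 and SMAD9, which enter the nucleus with SMAD4 and switch on ID1, ID3 and the genes of their own inhibitors, SMAD6 and SMAD7. In fat the pathway is known for committing precursor cells to the adipocyte lineage, and BMP6 is best known as the ligand that raises hepcidin in the liver of mice and humans.

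The samples carried the markers of the labelled tissue, with all 8 genes of an adipocyte list above background and the adipocyte hormone ADIPOQ at log2 14.7 to 16.0 on the 45 arrays. Skeletal muscle genes were high on 10 arrays, 5 of each group. At week 0, the baseline of every change, they were high on 3 of 5 ad libitum and 2 of 4 control arrays. The others were 1 array of each group at week 8, 1 ad libitum array at week 12, and control dogs 3 and 4 at week 24. Of 7 epithelial genes 5 were measured, and their mean level was 7.80 on the array of control dog 4 at week 24 and 2.57 to 3.77 on all other arrays. Over 100 probe sets that separate the dogs, 43 of 45 arrays matched the dog on their label, whereas at week 8 the array labelled ad libitum dog 5 matched dog 9 and the array labelled control dog 9 matched dog 5. Direct week 8 comparisons of the members are therefore given with and without these 2 arrays. Other week 8 values include both arrays unless stated. Laboratory batches 1 to 5 in the labels each held several of weeks 0 to 12, batch 6 held all week 24 arrays and no other, and at week 4 the feeding groups shared no batch. The small number of arrays limits the precision. In whole tissue, fewer cells of a type and less RNA per cell cannot be told apart.

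Of the 15 probe sets, 8 were tested, and they stood for 6 genes. A probe set was tested when it was above log2 4 on at least 4 arrays, and each of these 8 was above log2 4 on 45 of 45 arrays. The tested genes were all 3 ligands, the receptor BMPR1A and both ID genes, with a second probe set for BMP2 and for ID3. Over the 45 arrays BMP6 ranged from 5.91 to 10.86 with a median of 7.91, and ID1 ranged from 5.36 to 11.55 with a median of 8.90. These were the widest ranges among the 8.

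BMP6 was the only member called between the feeding groups: it was 4.66-fold higher in ad libitum than in control fat at week 8 and 4.79-fold higher at week 24. The call passed in 9 of 19 alternative settings at week 8 and in 16 of 19 at week 24. The change of BMP6 from week 0 did not differ between the groups at the threshold at either week. The targets ID1 and ID3 were lower at week 24 than at week 0 in both feeding groups. BMPR1A was lower at week 8 than at week 0 in the ad libitum dogs, a call that held in 6 of 19 alternatives. Tests are those of limma on all 22690 probe sets tested, with Benjamini-Hochberg adjusted p-values and a threshold of 0.05.

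In the direct comparisons at week 8, 1 of 8 member probe sets was higher in ad libitum fat, where 0.291% of all tested probe sets were called higher, and 0 of 8 were lower, where 1.13% of all tested were. At week 24 it was again 1 higher and 0 lower, where 3.76% of all tested were called higher and 1.69% lower. At week 0 limma called 0 of 8 members (0 with an unadjusted p below 0.05), against 0% of all tested (1.38% unadjusted). At week 4 limma called 0 of 8 (3 with an unadjusted p below 0.05), against 0.0132% of all tested (9.08% unadjusted). At week 12 limma called 0 of 8 (2 with an unadjusted p below 0.05), against 0.00441% of all tested (11.1% unadjusted). The median difference over the 8 members was 0.05 at week 24 and 0.05 at week 8, beside 0.01 and 0.08 over all tested probe sets.

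Subtracting the control change since week 0 from the ad libitum one gives the feeding effect, and limma called no member in it. At week 4, 0 of 8 members passed (2 with an unadjusted p below 0.05), and at week 8 it was 0 of 8 (1 unadjusted), against 0% of all tested at either week. At week 12, 0 of 8 passed (0 unadjusted), against 0% of all tested. At week 24, 0 of 8 passed (1 unadjusted), against 0.022% of all tested. For the mean of weeks 4 to 24 limma called 0 of 8 (0 unadjusted), against 0%. The unadjusted shares of all tested were 7.81%, 8.66%, 5.35% and 10.2% at weeks 4, 8, 12 and 24, and 4.23% for the mean.

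Within the ad libitum dogs, 1 of 8 members rose and 1 fell at week 8 relative to week 0, where 2.9% of all tested rose and 3.83% fell. At week 24, 1 rose and 3 fell, where 2.38% of all tested rose and 2.4% fell. At week 4 limma called 0 of 8 (4 with an unadjusted p below 0.05), against 0.498% of all tested (9.63% unadjusted). At week 12 it called 0 of 8 (4 unadjusted), against 0.802% (13.5% unadjusted). Within the control dogs, 0 rose and 3 fell at week 24, where 3.21% of all tested rose and 4.71% fell. At week 4 limma called 0 of 8 in control dogs (1 with an unadjusted p below 0.05), against 0.00441% (24.1% unadjusted). At weeks 8 and 12 it called 0 of 8 (0 unadjusted), against 0% of all tested (1.42% and 17.8% unadjusted).

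**Figure D1:**
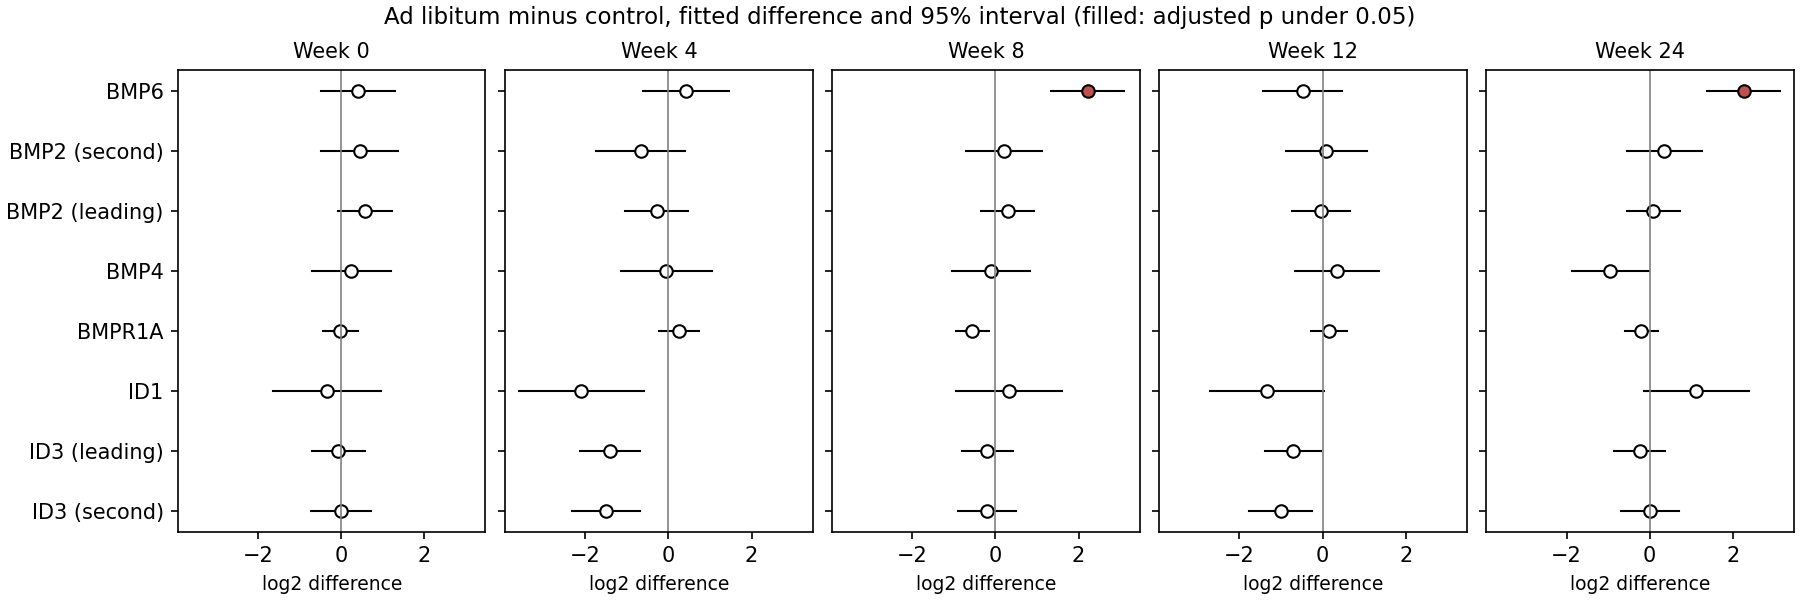
Fitted ad libitum minus control difference (log2, x axis) of each tested member probe set (y axis), 1 panel per week, with 95% intervals as bars and filled points where the limma adjusted p was below 0.05. Points right of 0 are higher in ad libitum fat. BMP6 stands at 2.22 at week 8 and 2.26 at week 24, and ID1 and ID3 lie below 0 at weeks 4 and 12.

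Among the ligands, BMP6 was read by 1 probe set. At week 0, BMP6 read 8.32, 6.28, 8.67, 8.14 and 7.83 in ad libitum dogs 2, 5, 6, 7 and 8, and 8.67, 7.79, 7.40 and 6.44 in control dogs 1, 3, 4 and 9. At week 4 the same ad libitum dogs read 7.36, 7.42, 8.66, 7.96 and 7.86, and the control dogs read 8.26, 8.89, 9.20 and 8.45. The groups overlapped at both weeks, and at week 4 control dogs 3 and 4 were the highest. At week 8 BMP6 was 8.93, 7.64, 9.99, 8.25 and 10.86 in the ad libitum dogs and 7.38, 5.91, 7.73 and 7.20 in the control dogs. The only crossing at week 8 was ad libitum dog 5, just below control dog 4, and the array labelled ad libitum dog 5 is 1 of the 2 that matched another dog. At week 12 the values were 7.91, 6.86, 8.27, 9.57 and 7.63 in ad libitum dogs and 7.35, 7.63, 7.27 and 8.76 in control dogs. At week 24 they were 9.66, 8.66, 10.52, 9.24 and 9.71 in ad libitum dogs and 7.89, 6.34, 7.84 and 7.12 in control dogs. The groups were mixed at week 12 and fully apart at week 24, when the lowest ad libitum dog was above the highest control dog.

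**Figure D2:**
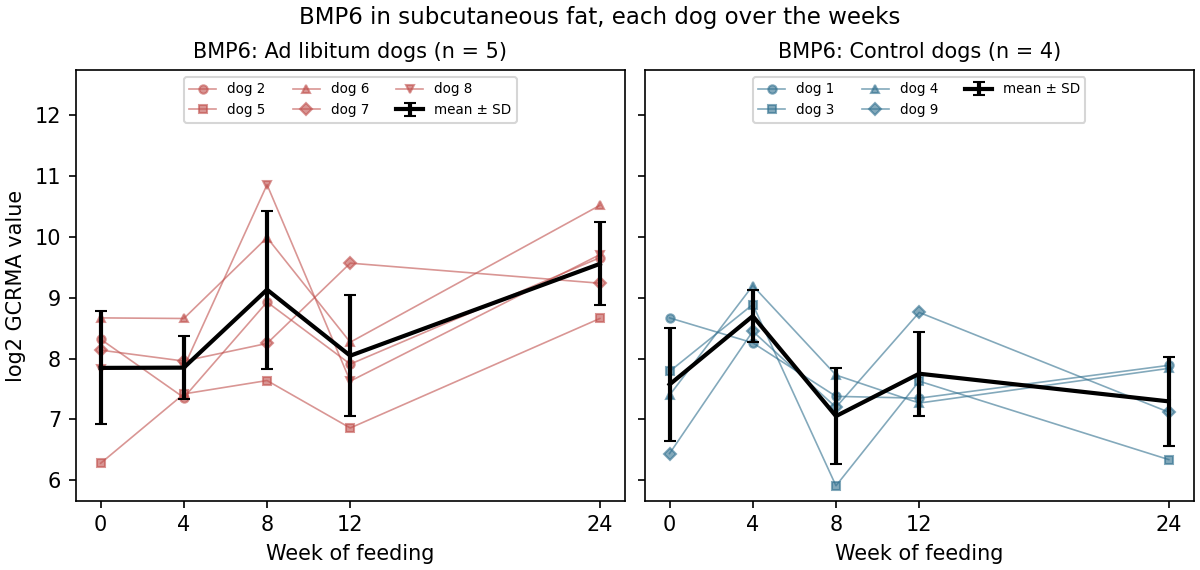
BMP6 level (log2 GCRMA, y axis) of each dog at each week (x axis), ad libitum dogs in the left panel and control dogs in the right, with 1 thin line per dog and a black line for the mean ± SD. Ad libitum dogs averaged 9.13 at week 8 and 9.56 at week 24, against 7.06 and 7.30 in control dogs, and the groups overlap at weeks 0, 4 and 12.

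BMP6 averaged 9.13 ± 1.30 in ad libitum fat at week 8 and 7.06 ± 0.79 in control fat (SD, n = 5 and 4). The fitted difference was 2.22 (SE 0.432, 95% interval 1.34 to 3.10, limma adjusted p = 0.0330). Within the batches that held both groups at week 8, ad libitum minus control was 3.13, 0.90, 2.34 and 2.79, above 0 in 4 of 4. Each value was 1 array against 1, except 0.90, which was 2 ad libitum arrays against 1 control array. The values 0.90 and 2.79 each include 1 of the 2 arrays that matched another dog. Without the 2 arrays that matched other dogs the means were 9.51 ± 1.15 (n = 4) and 7.01 ± 0.97 (n = 3), the groups no longer overlapped, and the difference was 2.39 (SE 0.492, limma adjusted p = 0.0272). The adipocyte list was also higher in ad libitum fat at week 8, with a median of 13.63 and a range of 13.41 to 13.99, against 13.05 and 12.95 to 13.69 in control fat, and its part in the BMP6 difference was not tested. The actin signal at the 3' end minus the 5' end, which grows as RNA or its labelled copies get shorter, was 1.74 ± 0.270 in ad libitum and 2.39 ± 0.609 in control fat at week 8. With it as a covariate the BMP6 difference was 2.18 (adjusted p = 0.105), and with another 5' probe set for actin it was 1.94 (adjusted p = 0.359). The difference stayed between 1.94 and 2.65 under 19 alternative settings, and its limma adjusted p ran from 0.00177 to 0.359. It passed under 9 of them. Besides the actin covariates, it missed the threshold without the batch term (2.08, adjusted p = 0.122), without the filter on low values (2.23, adjusted p = 0.0753) and from the arrays of that week alone (2.08, adjusted p = 0.231). It also missed it without dog 2 (2.13, adjusted p = 0.119), dog 3 (1.99, adjusted p = 0.231), dog 4 (2.12, adjusted p = 0.127), dog 6 (2.08, adjusted p = 0.191) or dog 9 (2.15, adjusted p = 0.107).

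At week 24 BMP6 averaged 9.56 ± 0.68 in ad libitum fat and 7.30 ± 0.73 in control fat (SD, n = 5 and 4). The fitted difference was 2.26 (SE 0.429, 95% interval 1.39 to 3.13, limma adjusted p = 0.00298), and all arrays of that week share 1 batch. Leaving out any 1 dog kept it past the threshold, at 1.94 to 2.49 (adjusted p 8.09e-05 to 0.0255). Markers of RNA quality and of muscle differed alongside. The actin 3' minus 5' difference was 3.51 ± 0.910 in ad libitum and 4.79 ± 1.20 in control fat, skeletal muscle genes were high in control dogs 3 and 4, and epithelial genes were high in control dog 4. Without dog 4 the BMP6 difference was 2.44 (adjusted p = 0.0105). With actin as a covariate the difference was 2.17 (adjusted p = 0.0736), without all arrays rich in muscle transcripts it was 2.05 (adjusted p = 0.0745), from the arrays of that week alone it also missed the threshold (2.26), and it passed in 16 of 19 alternatives. The adipocyte list had a median of 13.67 and a range of 11.81 to 14.00 in ad libitum fat and a median of 12.55 and a range of 11.73 to 12.92 in control fat, and its part was not tested.

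At the other weeks BMP6 passed no comparison between the groups. The fitted difference was 0.40 at week 0 (adjusted p = 1.00) and -0.48 at week 12 (adjusted p = 0.643). Before any batch term, BMP6 at week 12 averaged 8.04 ± 1.00 for the ad libitum dogs. The control dogs averaged 7.75 ± 0.69, which left a plain difference of 0.29. The sign at week 12 therefore depends on the batch term. At week 4 the plain group means were 7.85 ± 0.52 in ad libitum fat and 8.70 ± 0.42 in control fat, whereas the fit with batch gave 0.43 (SE 0.507, adjusted p = 0.755), so the sign at week 4 depends on the batch term.

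Set against its own week 0, BMP6 rose in ad libitum fat by 1.67 at week 8 (SE 0.428, limma adjusted p = 0.0224) and by 1.80 at week 24 (SE 0.412, adjusted p = 0.0108). It was above week 0 in 5 of 5 ad libitum dogs at both weeks, by 0.11 to 3.02 at week 8 and by 1.10 to 2.38 at week 24. The week 8 count includes the array labelled ad libitum dog 5 (1.36), which matched another dog. In control fat the changes were -0.14 at week 8 (adjusted p = 1.00) and -0.06 at week 24 (adjusted p = 0.959), with 2 dogs up and 2 down at either week. The week 8 count includes the array labelled control dog 9 (0.76), which matched another dog. At weeks 4 and 12 the fitted control changes were 0.66 and 0.85 (limma adjusted p = 0.378 and 0.331), with 3 of 4 and 1 of 4 dogs up. In ad libitum fat they were 0.68 and -0.04 (adjusted p = 0.684 and 0.981). The ad libitum change minus the control change, the feeding effect, was 1.82 at week 8 (SE 0.610, unadjusted p = 0.00535, limma adjusted p = 0.571) and 1.86 at week 24 (SE 0.614, unadjusted p = 0.00474, adjusted p = 0.302), and neither passed. It was 0.02 at week 4, -0.89 at week 12 (limma adjusted p = 0.750) and 0.70 for the mean of weeks 4 to 24 (unadjusted p = 0.169). The week 8 change in ad libitum dogs missed the threshold without dog 2 (1.57, adjusted p = 0.185), dog 5 (1.64, adjusted p = 0.0646), dog 6 (1.64, adjusted p = 0.0811) or control dog 9 (1.65, adjusted p = 0.0609). It also missed it without the batch term (1.29, adjusted p = 0.0855), without the filter on low values (1.69, adjusted p = 0.0537), without the arrays rich in muscle transcripts (1.70, adjusted p = 0.0836) and with the actin covariates (1.63 and 1.49, adjusted p = 0.0572 and 0.0552), so that it passed in 10 of 19 alternatives. The actin difference in these dogs was 1.74 ± 0.270 at week 8, against 2.85 ± 1.00 at week 0. The week 24 change missed it without dog 6 (1.66, adjusted p = 0.121), without dog 7 (1.81, adjusted p = 0.0533) or without the arrays rich in muscle transcripts (1.72, adjusted p = 0.194).

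**Figure D3:**
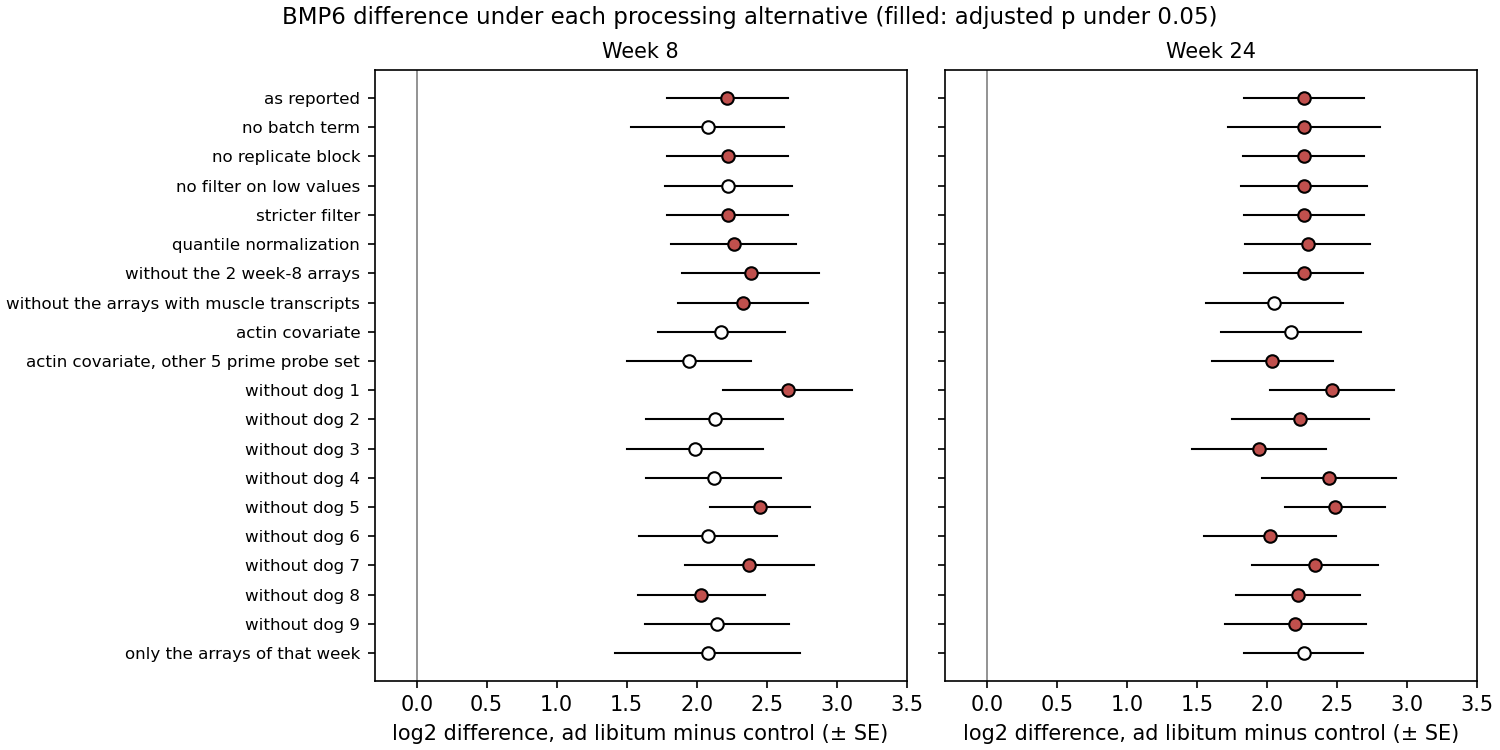
BMP6 ad libitum minus control difference (log2, x axis) at weeks 8 and 24 (1 panel each) under the reported model and each alternative (y axis), with the SE as bars and filled points where the limma adjusted p was below 0.05. All points lie between 1.94 and 2.65.

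By group mean, the order of BMP6 levels from high to low was ad libitum week 24, ad libitum week 8, control week 4, ad libitum week 12, ad libitum weeks 0 and 4, control week 12, control week 0, control week 24 and control week 8. No group differed from its neighbour in this order by more than the larger of their SDs. Over its 5 arrays, ad libitum dog 6 had the highest mean (9.22), ad libitum dog 5 averaged 7.37, and the control dogs averaged 7.31 to 7.91.

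BMP2, a ligand that in cultured mouse cells moves precursors towards fat, passed no comparison between the feeding groups at any week. Its leading probe set, the brighter of its pair, read 10.59, 9.23, 9.50, 8.90 and 8.87 in ad libitum dogs 2, 5, 6, 7 and 8 at week 0, and 9.10, 8.57, 8.63 and 8.95 in control dogs 1, 3, 4 and 9. At week 4 the ad libitum dogs read 8.53, 7.93, 8.27, 8.02 and 8.48, and the control dogs read 8.44, 8.98, 8.06 and 8.86. The groups overlapped at both weeks, and every ad libitum dog was lower at week 4 than at week 0. By week 24 the ad libitum dogs were at 10.01, 9.10, 9.52, 8.55 and 9.96, against 9.42, 9.61, 9.25 and 9.06 in control dogs. At weeks 8 and 12 the ad libitum dogs ranged from 7.84 to 9.52 and the control dogs from 7.76 to 9.13. Without the 2 arrays that matched other dogs, the week 8 means were 8.81 ± 0.53 (n = 4) in ad libitum fat and 8.36 ± 0.27 (n = 3) in control fat. The groups overlapped there too. Direct differences lay between -0.28 and 0.57 over the 5 weeks, and the smallest limma adjusted p was 0.566.

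The change of BMP2 from week 0 in ad libitum dogs was -1.14 at week 4 (SE 0.322, limma adjusted p = 0.102) and -1.08 at week 12 (SE 0.307, adjusted p = 0.0889), with 5 of 5 dogs lower at each week. At week 24 it was 0.02 (adjusted p = 0.975). The other BMP2 probe set gave -1.54 at week 4 (adjusted p = 0.123) and -1.20 at week 12 (adjusted p = 0.194), also with 5 of 5 dogs lower. With each dog as a fixed block the leading probe set passed at week 4 (-1.15, adjusted p = 0.0217) and week 12 (-1.10, adjusted p = 0.0221), and the other passed at week 4 (-1.58, adjusted p = 0.0262). Without dog 8 both passed at week 4, the leading one at -1.45 (adjusted p = 0.0215) and the other at -1.82 (adjusted p = 0.0365). Over all alternatives the adjusted p of the leading probe set ran from 0.0215 to 0.403 at week 4 and from 0.0221 to 0.393 at week 12. Control dogs fell as well, 3 of 4 at week 4 and 2 of 4 at week 12 on the leading probe set. On the other probe set 2 of 4 and 4 of 4 control dogs were lower, with fitted changes of -0.42 and -0.84. The feeding effect on that probe set was -1.12 at week 4 (limma adjusted p = 0.684) and -0.36 at week 12 (adjusted p = 0.889).

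BMP4, the ligand known for committing precursor cells to the adipocyte lineage, read 4.70, 6.39, 5.97, 5.78 and 5.33 in ad libitum dogs 2, 5, 6, 7 and 8 at week 24, and 6.45, 6.92, 6.46 and 6.52 in control dogs 1, 3, 4 and 9. Every ad libitum dog was below every control dog at that week. The means were 5.63 ± 0.65 and 6.59 ± 0.22 (SD, n = 5 and 4), and the difference of -0.95 (SE 0.456, unadjusted p = 0.0445) did not pass (limma adjusted p = 0.206, and 0.124 to 0.656 over the alternatives). At week 0 BMP4 read 6.16, 6.43, 6.78, 6.46 and 5.96 in ad libitum dogs and 6.09, 6.77, 5.63 and 5.72 in control dogs, so the groups overlapped before feeding changed. The change from week 0 to week 24 was negative in 5 of 5 ad libitum dogs (-1.46 to -0.03) and positive in 4 of 4 control dogs (0.15 to 0.83), with fitted changes of -0.63 (adjusted p = 0.403) and 0.56 (adjusted p = 0.503). The share of all tested probe sets that split this way is not given here. At weeks 4, 8 and 12 the groups overlapped, and the direct differences were -0.05, -0.11 and 0.35. Without the 2 arrays that matched other dogs, the week 8 means were 6.03 ± 0.95 (n = 4) in ad libitum fat and 6.25 ± 0.79 (n = 3) in control fat. The groups overlapped there too. Ad libitum dog 2 had the lowest mean over its 5 arrays (5.21), and the other dogs averaged 6.15 to 6.80.

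**Figure D4:**
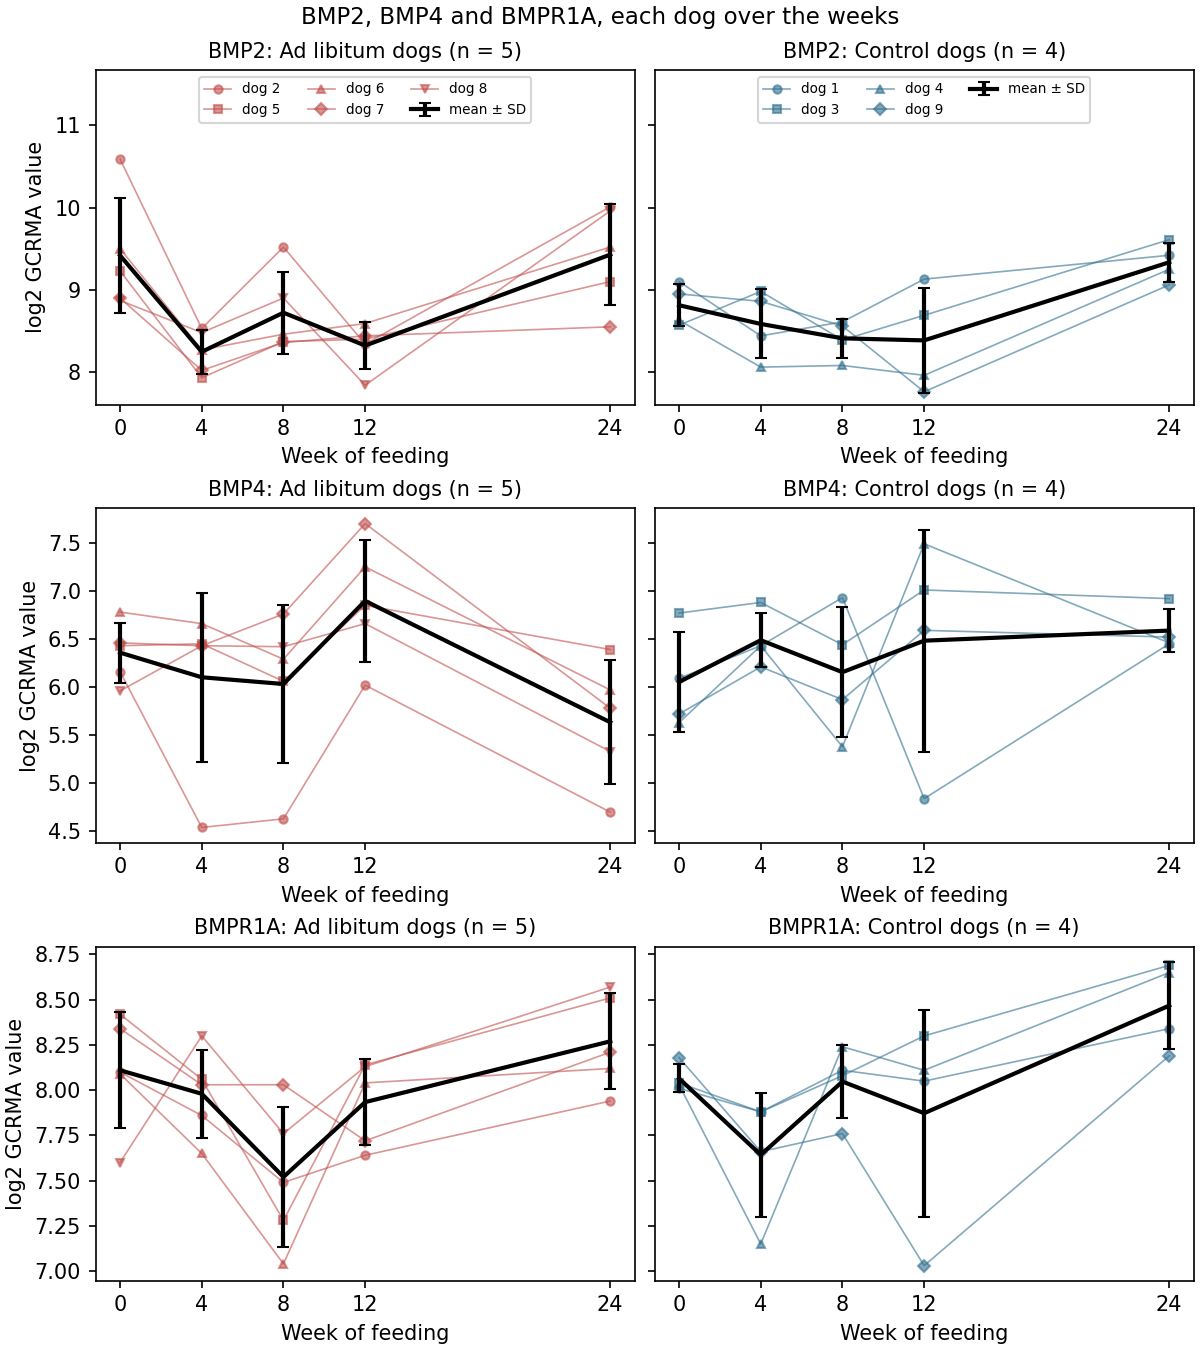
Levels (log2 GCRMA, y axis) of BMP2, BMP4 and BMPR1A in each dog at each week (x axis), ad libitum dogs in the left panel and control dogs in the right, with 1 thin line per dog and a black line for the mean ± SD. BMP4 is lower in all ad libitum dogs at week 24 (mean 5.63, against 6.59 in control dogs), and BMPR1A in ad libitum dogs is lowest at week 8 (mean 7.52, against 8.05).

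Among the receptors, BMPR1A was measured by 1 probe set above background. At week 8 it read 7.49, 7.28, 7.04, 8.03 and 7.76 in ad libitum dogs 2, 5, 6, 7 and 8, and 8.11, 8.08, 8.24 and 7.76 in control dogs 1, 3, 4 and 9. At week 0 it read 8.10, 8.42, 8.09, 8.34 and 7.60 in ad libitum dogs, and 8.01, 8.04, 8.03 and 8.18 in control dogs. At week 8, 3 of the 5 ad libitum dogs lay below every control dog, and at week 0 the groups overlapped. In ad libitum fat BMPR1A fell by 0.63 at week 8 relative to week 0 (SE 0.197, limma adjusted p = 0.0467), and it was lower in 4 of 5 dogs. This call held in 6 of 19 alternatives, with an adjusted p of 0.00197 to 0.418, and without the 2 arrays that matched other dogs the change was -0.54 (adjusted p = 0.140). It was also lost without dog 2 (-0.56, adjusted p = 0.270), dog 3 (-0.63, adjusted p = 0.0718), dog 4 (-0.60, adjusted p = 0.0794), dog 5 (-0.50, adjusted p = 0.418), dog 6 (-0.58, adjusted p = 0.143), dog 7 (-0.76, adjusted p = 0.0525) or dog 9 (-0.55, adjusted p = 0.101), and with each dog as a fixed block (-0.63, adjusted p = 0.0704). The actin covariates (-0.57 and -0.55, adjusted p = 0.121 and 0.127), quantile normalization (-0.52, adjusted p = 0.0658) and no filter on low values (-0.63, adjusted p = 0.0770) ended it too. The actin difference in ad libitum dogs was 1.74 ± 0.270 at week 8, against 2.85 ± 1.00 at week 0. The feeding effect on BMPR1A at week 8 was -0.54 (SE 0.281, limma adjusted p = 0.584). In control dogs BMPR1A changed by -0.10 at week 8. At week 4 it changed by -0.45 in control dogs (adjusted p = 0.204) and was lower in 4 of 4.

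The direct BMPR1A difference at week 8 was -0.56 (SE 0.199, limma adjusted p = 0.0941), with means of 7.52 ± 0.39 in ad libitum and 8.05 ± 0.20 in control fat. It was below 0 in 4 of 4 batches (-0.72 to -0.05). Each of these batches held 1 control array and 1 or 2 ad libitum arrays. The 2 batches at -0.72 each include 1 of the 2 arrays that matched another dog. The fitted difference passed without dog 7 (-0.70, adjusted p = 0.0391) or dog 8 (-0.63, adjusted p = 0.0498), and the adjusted p ran from 0.0391 to 0.555 over the alternatives. Without the 2 arrays the groups did not overlap, at 7.58 ± 0.42 (n = 4) and 8.14 ± 0.08 (n = 3), and the fitted difference was -0.46 (adjusted p = 0.363). At week 24 BMPR1A read 8.27 ± 0.27 in ad libitum and 8.47 ± 0.24 in control fat, a difference of -0.20 (adjusted p = 0.586). The other BMPR1A probe set was near background, at 1.96 to 4.17.

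BMPR1B, the other type I receptor on the list, was not above background: its probe sets read 2.39 to 3.59 and 3.15 to 4.14, and only 1 array reached above log2 4 on either. BMPR2, the type II receptor, has no probe set under its symbol in the platform table and was not analysed here. Of the intracellular brakes, the 3 probe sets of SMAD6 spanned 1.23 to 1.55, 1.70 to 3.75 and 2.39 to 4.72, and that of SMAD7 spanned 2.11 to 2.22. At most 2 of the 45 arrays were above log2 4 on any of them, so neither brake was tested and no level in fat is given for them.

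ID1 and ID3 encode proteins that bind basic helix-loop-helix factors and keep them off DNA, and both are direct targets of BMP signalling. At week 0, ID1 read 10.99, 8.54, 10.61, 8.46 and 9.40 in ad libitum dogs 2, 5, 6, 7 and 8, and 10.18, 9.43, 10.70 and 9.66 in control dogs 1, 3, 4 and 9. At week 4 it was 8.46, 8.81, 10.17, 8.80 and 8.09 in ad libitum dogs and 9.98, 11.55, 10.77 and 11.41 in control dogs. At week 8 it was 10.78, 10.36, 8.90, 7.48 and 9.29 in ad libitum dogs and 9.51, 9.70, 8.84 and 8.07 in control dogs. The groups overlapped at these 3 weeks, at week 4 only through ad libitum dog 6. At week 12 ID1 was 9.09, 8.16, 7.92, 8.87 and 8.61 in ad libitum dogs and 9.67, 10.53, 9.57 and 9.63 in control dogs. At week 24 it was 8.20, 7.66, 5.91, 8.05 and 7.42 in ad libitum dogs and 5.66, 5.93, 8.33 and 5.36 in control dogs. Every ad libitum dog was below every control dog at week 12, whereas at week 24 control dogs 1, 3 and 9 were low and control dog 4, whose array carried the epithelial and muscle genes, was the highest of all. The array of control dog 3 carried muscle genes too, at a mean level of 10.58, against 9.18 in control dog 4.

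ID3 followed on its leading probe set, with 12.87, 12.14, 12.51, 12.14 and 12.28 in ad libitum dogs at week 0 and 12.73, 12.18, 12.61 and 12.29 in control dogs. At week 4 it was 10.63, 11.63, 12.12, 11.44 and 11.20 in ad libitum dogs and 12.06, 13.53, 12.98 and 12.98 in control dogs. As with ID1, only ad libitum dog 6 reached into the control range at week 4. At week 8 it was 11.87, 12.65, 11.59, 10.83 and 11.75 in ad libitum dogs and 12.20, 12.37, 11.79 and 11.33 in control dogs. At week 12 it was 11.65, 11.81, 11.51, 11.86 and 11.48 in ad libitum dogs and 11.85, 12.63, 12.43 and 12.45 in control dogs. At week 24 it was 10.86, 11.05, 10.60, 11.58 and 11.07 in ad libitum dogs and 11.02, 11.46, 11.83 and 10.76 in control dogs. The groups overlapped at these weeks, at week 12 by the smallest margin.

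**Figure D5:**
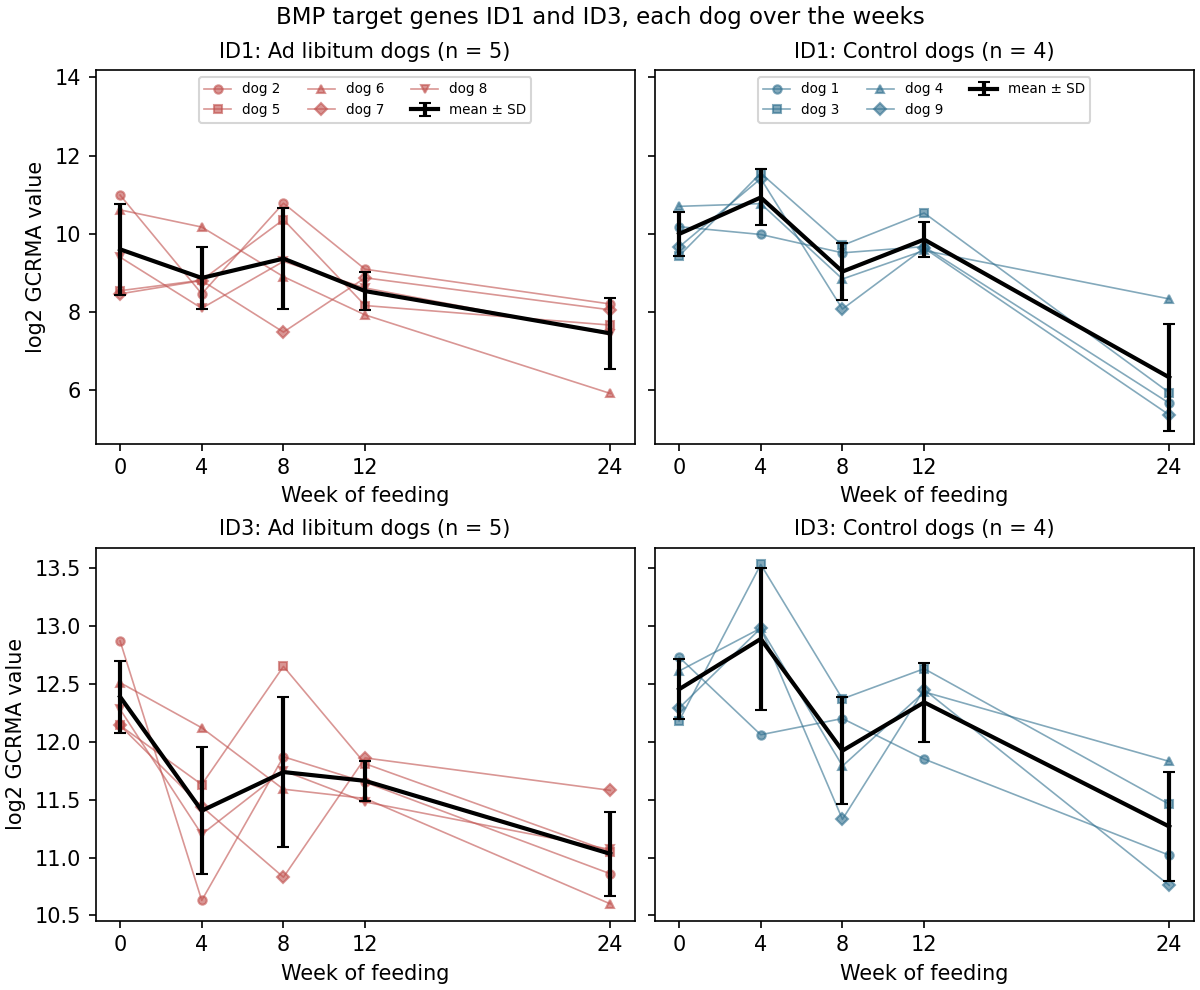
Levels (log2 GCRMA, y axis) of ID1 and ID3 in each dog at each week (x axis), ad libitum dogs in the left panel and control dogs in the right, with 1 thin line per dog and a black line for the mean ± SD. ID1 averaged 7.45 in ad libitum dogs and 6.32 in control dogs at week 24, the lowest means of either group, and ad libitum dogs lie below most control dogs at weeks 4 and 12.

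Relative to week 0, ID1 fell by 2.21 at week 24 in ad libitum dogs (SE 0.599, 4.62-fold lower, limma adjusted p = 0.0288), and it fell by 3.69 in control dogs (SE 0.661, 12.9-fold lower, adjusted p = 0.00153). On the leading ID3 probe set, ad libitum fat fell by 1.38 with an SE of 0.290 (adjusted p = 0.00618) and control fat fell by 1.21 with an SE of 0.321 (adjusted p = 0.0167). On the other ID3 probe set, ad libitum fat fell by 1.89 with an SE of 0.329 (adjusted p = 0.00109) and control fat fell by 1.90 with an SE of 0.363 (adjusted p = 0.00249). All 9 dogs were lower at week 24 than at week 0 on all 3 probe sets. The feeding effect at week 24 was 1.48 for ID1 (unadjusted p = 0.106, adjusted p = 0.575) and -0.17 for the leading ID3 probe set (adjusted p = 0.924).

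Week 24 and batch 6 are the same arrays, so for these falls the week and the batch cannot be told apart. The actin 3' minus 5' difference moved too, to 3.51 ± 0.910 at week 24 in ad libitum dogs, against 2.85 ± 1.00 at week 0, and to 4.79 ± 1.20 in control dogs, against 2.89 ± 1.17. Without control dog 4, the array high in epithelial genes, the changes in control dogs were -4.16 for ID1 (adjusted p = 0.00471) and -1.33 and -1.92 for the ID3 probe sets (adjusted p = 0.0361 and 0.0123). With actin as a covariate the changes in control dogs were -3.88 for ID1 (adjusted p = 0.0905) and -1.21 and -1.65 for the ID3 probe sets (adjusted p = 0.347 and 0.269). Without the arrays rich in muscle transcripts, leading ID3 changed by -1.86 in ad libitum dogs (adjusted p = 0.0508), and in control dogs the ID3 probe sets changed by -1.56 and -2.20 (adjusted p = 0.233 and 0.108). In ad libitum dogs ID1 missed the threshold without dog 2 (-2.06, adjusted p = 0.0650), dog 6 (-1.53, adjusted p = 0.297) or dog 8 (-2.17, adjusted p = 0.105), without the filter on low values (-2.21, adjusted p = 0.0653) or with the other actin covariate (-2.03, adjusted p = 0.0836), and leading ID3 without dog 6 (-1.18, adjusted p = 0.105). In control dogs leading ID3 missed it without dog 1 (-1.06, adjusted p = 0.0732), dog 3 (-1.44, adjusted p = 0.0501) or dog 9 (-1.02, adjusted p = 0.149). The ad libitum fall on the other ID3 probe set passed in 19 of 19 alternatives.

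Between the feeding groups no ID probe set passed at any week. At week 4 ID1 averaged 8.87 ± 0.78 in ad libitum and 10.93 ± 0.72 in control fat (difference -2.09, SE 0.737, unadjusted p = 0.00762, limma adjusted p = 0.389), and ID3 averaged 11.40 ± 0.55 and 12.89 ± 0.61 (difference -1.41, SE 0.357, unadjusted p = 0.000374, adjusted p = 0.170). Without the batch term the ID3 differences at week 4 passed, at -1.49 (adjusted p = 0.0148) and -1.56 (adjusted p = 0.0201), over a range of 0.0148 to 0.787 and 0.0201 to 0.820 for all alternatives. No batch held both groups at week 4, so no value within a batch can be given, and the actin difference was 1.75 ± 0.237 in ad libitum and 3.00 ± 0.275 in control fat. At week 12 ID1 averaged 8.53 ± 0.49 in ad libitum and 9.85 ± 0.46 in control fat (difference -1.34, SE 0.676, adjusted p = 0.452). Within the batches that held both groups, with 1 array of each, it was -1.70 and -1.92. The other ID3 probe set averaged 9.83 ± 0.32 and 10.77 ± 0.39 at week 12 (difference -1.01, unadjusted p = 0.0102, adjusted p = 0.451). At week 8, leaving out the 2 arrays that matched other dogs turned the ID1 difference to -0.43 (adjusted p = 0.829), against 0.33 with all arrays, and moved ID3 to -0.69 (adjusted p = 0.305), against -0.20.

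Counted over all tested members, no probe set kept the groups apart at weeks 0, 4 and 8. Of all tested probe sets, 0.145% were higher and 0.0617% lower with no overlap at week 0, 1.97% and 2.77% at week 4, and 1.64% and 2.12% at week 8. Without the 2 arrays at week 8, BMP6 lay higher and BMPR1A lower in ad libitum fat with no overlap, where 8.97% of all tested probe sets were higher and 7.32% lower in the same way. At week 12, ID1 and the other ID3 probe set lay lower and no member higher with no overlap, where 1.01% of all tested were lower and 0.591% higher. At week 24 BMP6 lay higher and BMP4 lower, where 5.41% of all tested were higher and 4.34% lower with no overlap.

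By group mean, the order of ID1 levels from high to low was control weeks 4, 0 and 12, ad libitum weeks 0 and 8, control week 8, ad libitum weeks 4, 12 and 24, and control week 24. Neighbours in this order differed by more than the larger of their SDs in 2 places, between control week 4 and control week 0 and between ad libitum week 12 and ad libitum week 24. For leading ID3 the order ran from control week 4 to ad libitum week 24, and no neighbours differed by that much.

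Over the 45 arrays ID1 and leading ID3 varied together (Pearson r = 0.849), and they did so after removing the group and week means (r = 0.784). BMP6 did not vary with the targets in this way, with r = 0.05 to ID1 and -0.11 to leading ID3. These points share 9 dogs and 6 batches, so the correlations are descriptions. Pairs of probe sets of 1 gene correlated at 0.917 for BMP2 and 0.966 for ID3. Among 16915 probe sets with 1 symbol, those most like BMP6 over the 45 arrays belonged to LSM1 (Pearson r = 0.745, Spearman rho = 0.716), SAP30L (r = 0.730), CRIP2 (r = 0.724), EHD2 (r = 0.724) and PRKACA (r = 0.723). Those most like ID1 were ID3 (r = 0.886, rho = 0.902), RPLP1 (r = 0.816), DPM3 (r = 0.813), LOC486757 (r = 0.811) and MRPS18B (r = 0.810).

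The wider pathway was read from lists of 91 other genes, of which 76 had a probe set and 43 were tested at their brightest one. In the direct comparison at week 8, 1 of 43 was higher and 0 lower, where 0.291% of all tested probe sets were higher and 1.13% lower. At week 24, 1 of 43 was higher and 2 were lower, where 3.76% of all tested were higher and 1.69% lower. Over the alternatives the number of the 43 called ran from 0 to 3 at week 8, with 3 without dog 1, and from 0 to 8 at week 24. It was 8 at week 24 without dog 5, and 0 without dog 2, with actin as a covariate, without the arrays rich in muscle transcripts or from that week's arrays alone. Over all tested probe sets the number called ran from 0 to 2067 at week 8 and from 29 to 3097 at week 24. In the direct comparisons at weeks 0, 4 and 12 and in the feeding effects limma called 0 of 43, but without the batch term 3 were called at week 4, and without dog 8 the feeding effect at week 8 had 2. The number over all tested probe sets ran from 0 to 388 and from 0 to 1324 in these 2 comparisons. None of the 3 tested ligands, 5 signal carriers, 4 iron genes tied to BMP6 or 5 thermogenic and commitment genes passed in a direct comparison. The median difference over the 43 genes at week 24 was -0.17, beside 0.01 over all tested probe sets.

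SMURF1, a ubiquitin ligase that marks BMP SMADs and receptors for breakdown, was higher in ad libitum fat at week 8 by 1.59 (SE 0.397, limma adjusted p = 0.0455), at 6.41 ± 0.26 against 4.88 ± 0.91 in control fat (SD, n = 5 and 4). It passed in 6 of 19 alternatives with an adjusted p of 0.0253 to 0.463, and it missed the threshold without the 2 arrays that matched other dogs (1.76, adjusted p = 0.0838) and without dogs 2, 3, 4, 5, 6 or 9 in turn (1.34 to 1.80). SMURF1 also missed it with the actin covariates (1.44 and 1.23, adjusted p = 0.164 and 0.463), without the batch term (1.53), without the filter (1.60), without the arrays rich in muscle transcripts (1.47) and from the arrays of week 8 alone (1.53). CRIM1, a membrane protein that binds BMPs and limits their release, gave a week 24 difference of 2.03 with an SE of 0.515 (adjusted p = 0.0180), at 6.20 ± 0.93 in ad libitum and 4.17 ± 0.71 in control fat. It passed in 13 of 19 alternatives (adjusted p 0.00244 to 0.343) and missed the threshold without dog 2 (2.00, adjusted p = 0.0750) or dog 4 (2.02, adjusted p = 0.0725).

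ID4, another ID family member, was lower in ad libitum fat at week 24, with a difference of -1.71 (SE 0.378, limma adjusted p = 0.00798), at 5.48 ± 0.45 against 7.18 ± 0.85 in control fat. It passed in 14 of 19 alternatives (adjusted p 0.00500 to 0.246) and missed the threshold without dog 2 (-1.53, adjusted p = 0.0630) or dog 4 (-1.37, adjusted p = 0.0738). ACVR1, a type I receptor for BMPs, was also lower, with a difference of -0.78 (SE 0.199, adjusted p = 0.0196), at 9.54 ± 0.32 in ad libitum and 10.31 ± 0.24 in control fat. It passed in 11 of 19 alternatives (adjusted p 0.0130 to 0.240) and missed the threshold without dogs 1, 2, 3 or 7 in turn (-0.81 to -0.64). With actin as a covariate the week 24 differences were 1.46 for CRIM1 (adjusted p = 0.343), -1.19 for ID4 (adjusted p = 0.246) and -0.70 for ACVR1 (adjusted p = 0.240). Without the arrays rich in muscle transcripts they were 2.53 for CRIM1 (adjusted p = 0.0892), -1.43 for ID4 (adjusted p = 0.127) and -0.71 for ACVR1 (adjusted p = 0.219). With the other actin covariate CRIM1 (1.84) and ACVR1 (-0.61) missed the threshold, and from the arrays of week 24 alone all 3 did. Control dog 4, without which the CRIM1 and ID4 calls were lost, had the array with epithelial genes at 7.80, against 2.57 to 2.83 on the other 8 arrays of week 24, and their part was not tested.

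Among changes from week 0, the genes that passed were named after their values were seen. In ad libitum dogs at week 8, 0 of 43 rose and 2 fell, where 2.9% of all tested rose and 3.83% fell. FST, which binds activins and BMPs, changed by -1.96 (adjusted p = 0.0349), and the signal carrier SMAD5 by -1.50 (adjusted p = 0.0352). Neither passed with either actin covariate, without the filter on low values or without the 2 arrays that matched other dogs, and SMAD5 also missed the threshold without the arrays rich in muscle transcripts (-2.19, adjusted p = 0.0601). In ad libitum dogs at week 24, 1 of 43 rose and 0 fell, where 2.38% of all tested rose and 2.4% fell, and it was SMAD2, a carrier of activin and TGF-beta signals (0.88, adjusted p = 0.0285). SMAD2 did not pass without the filter, without the arrays rich in muscle transcripts (0.62, adjusted p = 0.561) or with the other actin covariate (0.71, adjusted p = 0.123). In control dogs at week 24, 3 of 43 rose and 0 fell, where 3.21% of all tested rose and 4.71% fell. They were SMURF2, a ubiquitin ligase related to SMURF1 (1.32, adjusted p = 0.00659), ID4 (1.67, adjusted p = 0.0102) and ACVR1 (0.67, adjusted p = 0.0453). All 3 calls were lost with either actin covariate and without the arrays rich in muscle transcripts, when SMURF2 was 1.13, 0.86 and 1.30, ID4 was 0.86, 1.07 and 1.46, and ACVR1 was 0.54, 0.29 and 0.49. ACVR1 also missed the threshold with each dog as a fixed block (adjusted p = 0.0659) and without the filter (adjusted p = 0.0710). The actin difference in control dogs was 4.79 ± 1.20 at week 24, against 2.89 ± 1.17 at week 0, and the week cannot be told apart from batch 6. Leaving out a single dog ended each of these calls for at least 1 dog, and the values without it ranged from -2.10 to -1.45 for FST (dogs 2, 5, 6 or 9), -1.68 to -1.17 for SMAD5 (dogs 2, 3, 4, 5, 6, 7 or 9), 0.63 to 0.89 for SMAD2 (dogs 5, 6, 7, 8 or 9), 1.23 to 1.24 for SMURF2 (dogs 3 or 9), 1.32 to 1.64 for ID4 (dogs 3, 4 or 9) and 0.52 to 0.67 for ACVR1 (dogs 1, 3, 5, 6, 7 or 9). In ad libitum dogs at weeks 4 and 12 limma called 0 of 43, against 0.498% and 0.802% of all tested, and it called 2 and 1 without dog 8, 2 and 1 without the batch term, and 1 at week 12 without dog 3 or with each dog as a fixed block. In control dogs at weeks 4, 8 and 12 it called 0 of 43, against 0.00441%, 0% and 0% of all tested. Without dog 1 it called 4, 0 and 7 of the 43. These shares are those of the reported fit. Over the alternatives the number called among all tested probe sets ran up to 1966 and 406 in ad libitum dogs at weeks 4 and 12. In control dogs it ran up to 2540, 0 and 4121 at weeks 4, 8 and 12.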

How the data were processed

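Subcutaneous fat RNA from 9 dogs was extracted with Trizol, biotin-labelled by the Affymetrix 3' method and hybridised to canine arrays, per the labels' protocols. The deposited values are GCRMA levels, per the submitters' processing notes, 1 per probe set and array. The log base, versions, filters and any batch correction by the authors were not given in the sources used here. A lowest deposited value of 0.42, a highest of 17.51 and a median of each array near 3.60 to 3.83 led to their being read as log2. Nothing was normalized again in the reported fit.

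Of 43035 probe sets in all, 111 were controls. Those above log2 4 on at least 4 of 45 arrays were tested (22690, or 52.86%), and 16915 of them had 1 gene symbol in the platform table, 271 had several and 5504 had none. In R 4.3.3, limma 3.58.1 and statmod 1.5.0 fitted 10 group-by-week means and batches 1 to 5, with the dog as a random block (correlation 0.00562) and 31 residual degrees of freedom. The same animals were sampled at every week, so the animal id in the labels pairs the arrays. The p-values are 2-sided, from limma's moderated test, with Benjamini-Hochberg adjustment over all tested probe sets in each of 18 comparisons. A limma fit was also run on simulated data for the direct comparison at week 24. It called 35% of 100 probe sets changed by log2 1 and 76% of 100 changed by log2 2, with 8 false calls.

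Members are named at the probe set with the highest mean, other pathway genes where they passed in a direct comparison (up to 6), and the 5 symbols most like BMP6 and ID1 by Pearson r. Members and lists were chosen with earlier results of these data known. Samples and dogs are named by the labels. The alternatives changed the batch term, the dog block, the filter on low values, the normalization, an actin covariate and the arrays used, and 1 of them, the actin covariate from another 5' probe set, was chosen after seeing the data.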

Additional observations from a re-analysis of the deposited data

Results flagged for a closer look

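In 4 of the 60 groups of 4 or 5 dogs examined, 1 dog lay far from the others of its group, and chance alone flags about 1 in 20 groups. BMP4 in ad libitum dog 2 at week 4 was 4.54, against 6.43 to 6.66 in the other 4 ad libitum dogs. BMP4 in control dog 3 at week 24 was 6.92, against 6.45 to 6.52 in the other control dogs. BMPR1A in control dog 9 at week 0 was 8.18, against 8.01 to 8.04. ID1 in control dog 3 at week 12 was 10.53, against 9.57 to 9.67.

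The change of BMP4 from week 0 to week 24 was negative in every ad libitum dog and positive in every control dog, and the mean changes differed by -1.25. It was flagged for this split after all tested member genes were screened at each week. No share of all tested probe sets that split this way is given. The fitted difference of these changes was -1.19 (SE 0.652, unadjusted p = 0.0772, limma adjusted p = 0.539), so it did not pass the test.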

How the results depend on the processing

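No result past the threshold changed sign under any alternative. Of 836 values of single probe sets, 685 kept their side of the threshold, 138 lost a call and 13 gained one. These values cover members with an unadjusted p below 0.05 and the pathway genes called. The 685 therefore include results that were never called. BMP6 at week 8 (2.22) was 2.08 without the batch term, 2.23 without the filter on low values, 2.18 and 1.94 with the actin covariates and 2.08 from the arrays of that week alone, past the threshold in none of these, and 1.99 to 2.65 when single dogs were left out. At week 24 (2.26) it was 2.05 without the arrays rich in muscle transcripts, 2.17 with actin as a covariate and 2.26 from that week's arrays alone, again not past the threshold, and 1.94 to 2.49 when single dogs were left out. Counts of members called moved as follows. Without the batch term, 2 were called in the direct comparison at week 4, 0 at week 8, and 2, 1 and 1 in the changes of ad libitum dogs at weeks 4, 8 and 12. The week 8 direct count was also 0 without the filter, with either actin covariate and from that week's arrays alone, and the week 24 direct count was 0 without the muscle-rich arrays, with the first actin covariate and from that week's arrays alone. The change of ad libitum dogs at week 8 had 1 call under quantile normalization, without the 2 arrays and without the muscle-rich arrays, and 0 without the filter and with either actin covariate. At week 24, without the muscle-rich arrays, 2 were called in ad libitum dogs and 1 in control dogs, and 0 in control dogs with either actin covariate. Leaving out single dogs gave 0 to 2 calls at week 8 and 1 to 1 at week 24 in the direct comparisons, 0 to 2, 0 to 3 and 1 to 4 in ad libitum dogs at weeks 4, 8 and 24, and 2 to 3 in control dogs at week 24.

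The dog paired the arrays, but the block correlation in the reported fit was 0.00562, so leaving the block out could change little. Without the replicate block BMP6 was 2.22 at week 8 (limma adjusted p = 0.0320) and 2.26 at week 24 (adjusted p = 0.00305). With the dog as a fixed replicate block, which can give no direct comparison, the counts in ad libitum dogs were 2 at week 4, 1 at week 8 and 1 at week 12, and the block changed no other count of members. Of the 43 other pathway genes it called 1 in ad libitum dogs at week 12, where the reported fit called 0, and it changed no other count of these genes.

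Over all tested probe sets, the number called in the direct comparison ranged over the alternatives from 0 to 2067 at week 8 (323 as reported) and from 29 to 3097 at week 24 (1238 as reported). The changes from week 0 ranged from 12 to 5814 in ad libitum dogs at week 8 (1527), from 91 to 1520 at week 24 (1084) and from 8 to 2308 in control dogs at week 24 (1797). The direct comparison at week 4 ranged from 0 to 388, and the ad libitum change from 23 to 1966 at week 4 and 2 to 406 at week 12. Members near background (BMPR1B, SMAD6 and SMAD7) have no measured change on these arrays. Of the 43 other pathway genes, the alternatives called 0 to 3 in the direct comparison at week 4 and 0 to 2 in the feeding effect at week 8. From week 0 they called 0 to 2, 0 to 6, 0 to 1 and 0 to 3 in ad libitum dogs at weeks 4, 8, 12 and 24, and 0 to 4, 0 to 7 and 0 to 6 in control dogs at weeks 4, 12 and 24.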
